A study of Mus musculus with 13 samples.

Results

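The genes described are 10 genes of the skeletal muscle lineage, Pax3, Pax7, Myf5, Myod1, Myog, Chrna1, Acta1, Actc1, Des and Ttn, out of the 55487 genes that the count tables list. They were chosen by symbol, as genes whose transcripts mark muscle precursors and their progeny, and each symbol matched 1 gene of both tables. They were read by RNA-seq in 13 libraries made from mouse embryonic fibroblasts (MEFs), the mixed adherent cells of a dissociated embryo, taken before (primary) and after spontaneous immortalization. The labels give 4 groups, namely WT primary MEFs (clones 3, 4 and 5, n = 3), WT immortalized MEFs (lines 3, 4 and 5, n = 3), Prkd3-/- primary MEFs (clones 13, 14 and 15, n = 3) and Prkd3-/- immortalized MEFs (lines 13, 13a, 14 and 15, n = 4). In the published methods, written for WT MEFs, cultures were grown with 10% FCS. The serum was raised to 20% once the cells had become senescent, until colonies grew out that gave each immortalized line. By these methods a line stems from colonies of its clone, and immortalization was spontaneous. Lines 13 and 13a share a clone number. How the Prkd3 allele was deleted is not given in the sources used here.

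The comparison asked how the transcripts of muscle precursors in MEF cultures differ between primary cells and the lines that outlive senescence. In bulk RNA, fewer cells of a type and less RNA per cell cannot be told apart. Library totals ranged from 35273408 to 100441756 counts, and 3 counts, used as the floor of detection, corresponded to 0.0277 to 0.0842 CPM (counts relative to library size, scaled by TMM over the 13 libraries). Values are given as mean ± SD of CPM, intervals and floors cover counting error only, and p-values measure the spread between these libraries. The WT primary libraries were very alike, with a spread of 2.14% to 3.36% per gene beyond counting noise between pairs, against 19.4% to 24.9% in the WT lines and 25.8% to 51.3% in the Prkd3-/- lines. Counts of the gene Prkd3 itself ranged from 69.2 to 93.7 CPM in the WT libraries and from 33.6 to 61.0 CPM in the libraries labelled Prkd3-/-, so the transcript was still counted there. The 2 genotypes come in separate tables, so a difference in level between genotypes cannot be told apart from any other difference between the tables. Only the change from primary to immortalized was compared between genotypes.

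Skeletal muscle of the trunk and limbs arises from somite cells in which the paired-box factors Pax3 and Pax7 mark the precursors. The basic helix-loop-helix factors Myf5 and Myod1 then commit cells to the lineage, and Myog drives their differentiation and fusion. These helix-loop-helix factors bind the E-box, CANNTG, in control regions of structural muscle genes such as Chrna1, the alpha subunit of the muscle acetylcholine receptor. Acta1 encodes skeletal alpha-actin, Actc1 the cardiac alpha-actin that is also made in embryonic skeletal muscle, Des the intermediate filament desmin, and Ttn the giant spring protein titin of the sarcomere. Desmin is made in smooth muscle and pericytes too.

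Promoters are shown for 4 members, because Myog encodes a helix-loop-helix factor itself, Acta1 and Des had the highest levels, and Chrna1 held the most E-boxes. Sequences are from RefSeq on GRCm38.p6, 5′ to 3′ on the strand of the gene, 300 bases around the start of the gene and mostly before it, and capitals mark each E-box (CANNTG, which reads as CANNTG on both strands).
Myog, chr1:134289754-134290053, plus strand: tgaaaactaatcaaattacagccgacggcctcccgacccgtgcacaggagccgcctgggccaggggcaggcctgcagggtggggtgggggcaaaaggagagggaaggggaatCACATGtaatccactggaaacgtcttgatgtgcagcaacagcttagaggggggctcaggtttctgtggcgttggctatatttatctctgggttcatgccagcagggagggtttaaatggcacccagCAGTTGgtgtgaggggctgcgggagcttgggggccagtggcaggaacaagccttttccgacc
Chrna1, chr2:73580289-73580588, minus strand: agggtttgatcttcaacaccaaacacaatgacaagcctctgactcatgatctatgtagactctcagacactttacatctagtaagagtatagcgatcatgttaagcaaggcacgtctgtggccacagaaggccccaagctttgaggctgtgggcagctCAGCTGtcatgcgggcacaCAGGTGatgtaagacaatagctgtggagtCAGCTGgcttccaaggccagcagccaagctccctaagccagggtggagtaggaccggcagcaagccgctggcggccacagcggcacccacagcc
Acta1, chr8:123894726-123895025, minus strand: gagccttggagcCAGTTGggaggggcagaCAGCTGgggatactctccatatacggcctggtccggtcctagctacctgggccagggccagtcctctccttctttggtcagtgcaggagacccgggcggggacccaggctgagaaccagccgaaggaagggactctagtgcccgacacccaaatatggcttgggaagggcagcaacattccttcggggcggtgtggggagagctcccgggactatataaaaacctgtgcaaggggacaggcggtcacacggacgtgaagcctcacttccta
Des, chr1:75360042-75360341, plus strand: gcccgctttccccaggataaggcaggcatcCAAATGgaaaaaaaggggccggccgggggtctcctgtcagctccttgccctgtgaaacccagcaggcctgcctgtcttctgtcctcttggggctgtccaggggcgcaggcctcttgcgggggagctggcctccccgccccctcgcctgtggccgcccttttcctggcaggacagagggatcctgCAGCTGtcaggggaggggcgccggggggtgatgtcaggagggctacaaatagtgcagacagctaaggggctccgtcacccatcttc

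The promoter of Myog held 2 E-boxes, that of Chrna1 3, that of Acta1 2 and that of Des 2. The E-boxes nearest the start of transcription began at position -12 in Myog, -44 in Chrna1, -221 in Acta1 and -36 in Des, counted from the RefSeq start that the promoter table uses, which can differ from the Ensembl gene ends printed with each gene. Of the 10 members, 8 (all but Pax3 and Myod1) matched the promoter table. Of the others in it, Actc1 and Ttn held 1 E-box each and Pax7 and Myf5 held 0. A CArG box, the site of serum response factor, was searched as CC, then 6 bases of A or T, then GG, on both strands, and was found in Acta1 and in Actc1. Ttn held a MEF2 site, searched on both strands as YTAWWWWTAR, where Y is C or T, W is A or T and R is A or G. Stretches that differ from this pattern by a base were not counted. None of these matches overlapped another. Among all 32851 promoters of this length in the table, 72.3% held an E-box, 1.63% a CArG box and 3.19% a MEF2 site, so an E-box in such a window is common. A match describes the letters only.

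Pax3, Pax7, Myf5, Myod1 and Myog were at or near the floor in the WT cultures, and all but 1 of their counts there were in the primary MEFs. Pax3 (ENSMUSG00000004872, chromosome 1, 78101267 to 78197134 on GRCm38) had 5, 2 and 0 counts in primary clones 3, 4 and 5, and 1, 0 and 0 in the lines of the same numbers. Pax7 (ENSMUSG00000028736, chromosome 4, 139737062 to 139833528), which also marks satellite cells of grown muscle, had 1, 3 and 0 counts in the WT primary MEFs. It had 1 count in Prkd3-/- primary clone 14 and 0 in the other 9 libraries. Myf5 (ENSMUSG00000000435, chromosome 10, 107482908 to 107486134) had 1 count in all, in WT primary clone 4, so its level could not be compared at this depth.

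Myod1 and Myog had counts in primary MEFs of both genotypes and in none of the 7 lines. Myod1 (ENSMUSG00000009471, chromosome 7, 46376474 to 46379099) had 1, 2 and 2 counts in WT primary clones 3, 4 and 5, and 1, 4 and 0 in Prkd3-/- primary clones 13, 14 and 15. Myog (ENSMUSG00000026459, chromosome 1, 134289989 to 134292548) had 3, 7 and 1 counts in the WT primary MEFs and 1, 22 and 0 in the Prkd3-/- primary MEFs. Both were counted in all WT primary clones, while in Prkd3-/- clone 15, the shallowest library, neither was seen. The pooled primary counts were set against a floor of 3 counts over the group of lines, after scaling. Myog in the primary MEFs stood 3.21-fold above that floor in WT and 8.76-fold in Prkd3-/-. For Myod1 the same folds were 1.46 and 1.90. These folds leave out the counting error of the primary counts, so they are not lower bounds. For Myod1 the 95% exact Poisson intervals of 5 primary counts (1.62 to 11.7) and of 0 counts in the lines (0 to 3.69) overlap in each genotype. Of the 23 Myog counts in Prkd3-/- primary MEFs, 22 were in clone 14, as were 4 of the 5 of Myod1. Without this clone 1 count of each remained and gave no fold. Without WT clone 4 the fold of Myog was 2.05, and Myod1 was at the floor. These sums of 11 and 23 counts for Myog (95% exact Poisson intervals 5.49 to 19.7 and 14.6 to 34.5) were too low for edgeR's filter, and neither gene was tested there. DESeq2 gave Myog in Prkd3-/- a Log2FC of -4.71 (SE 2.74, adjusted p = 0.696) and no adjusted p in WT. Of the 5 factors, edgeR's filter passed none in WT, and Pax3 alone in Prkd3-/-.

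**Figure D1:**
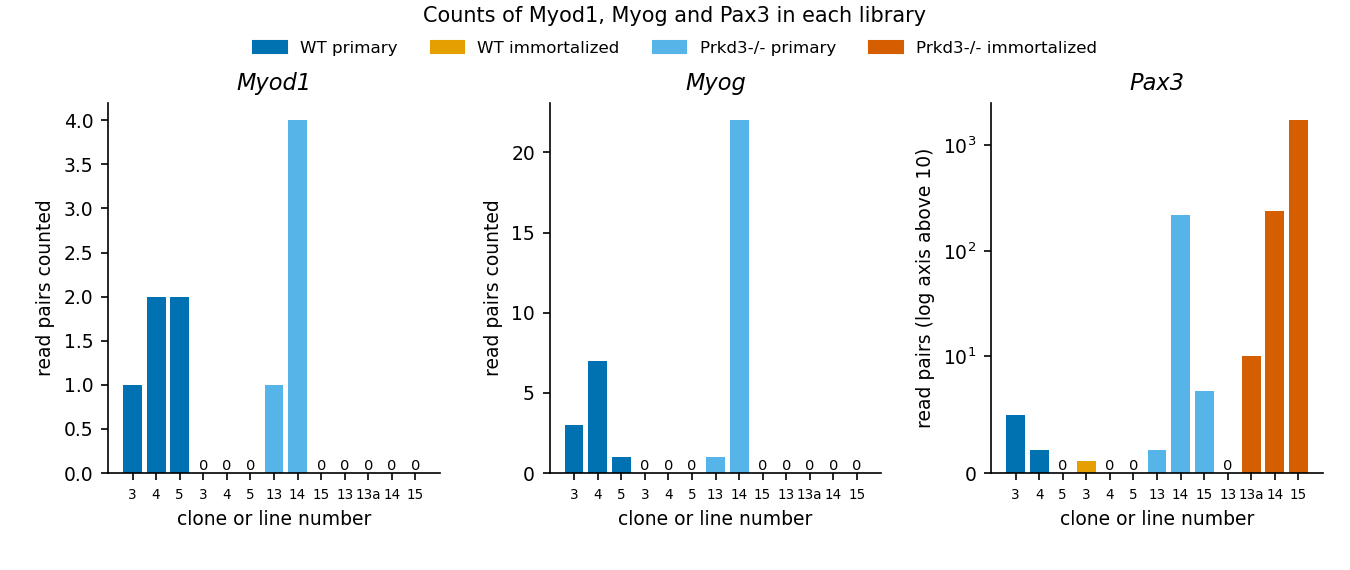
Counts (read pairs, vertical axis; logarithmic above 10 for Pax3) of Myod1, Myog and Pax3 in each of the 13 libraries (horizontal axis, clone or line number), 1 bar per library and coloured by group. Myod1 and Myog had 0 counts in each of the 7 immortalized libraries, whereas Pax3 reached 1737 counts in Prkd3-/- line 15.

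Pax3 in the Prkd3-/- cultures followed another order than Myod1 and Myog. The primary clones 13, 14 and 15 had 0.0230, 2.04 and 0.196 CPM, and lines 13, 13a, 14 and 15 had 0, 0.137, 3.72 and 23.4 CPM. Clone 14 was the highest among the primary MEFs and line 15 among the lines, and the groups overlapped. In raw counts line 14 had 238 and line 15 had 1737, against 10 in line 13a and 0 in line 13. Within clones, line 15 stood 119-fold above its primary clone and line 14 1.82-fold above its own. The Log2FC from primary to immortalized was 3.14 (SE 2.31, adjusted p = 0.845 in edgeR's quasi-likelihood test with Benjamini-Hochberg adjustment), within the spread between libraries, and it was 0.75 without line 15 and 6.08 without primary clone 14. Pax7, Myf5, Myod1 and Myog had 0 counts in lines 14 and 15, and so had Myf6, the fourth helix-loop-helix factor. Pax3 is also known from the neural crest and its Schwann cells. The 10 genes listed as markers of these cells summed to 0.668, 39.3, 67.1 and 1.38 CPM in lines 13, 13a, 14 and 15. Their part in the level of Pax3 was not tested. Zic1, the most abundant, had 0, 26.3, 53.2 and 0 CPM in these lines and made up most of the sum in lines 13a and 14. S100b had 11.4 CPM in line 14 and Tfap2a 12.0 CPM in line 13a, while Sox10 and Foxd3 had 0 counts in all 4 lines. S100b and Tfap2a, and the genes that follow, were looked at after the values were seen. In line 15, Tbx20, from a list of heart muscle markers, stood at 30.5 CPM, against 3.24 CPM in line 14. Meox1, from a list of 16 myogenic regulators, stood at 28.8 CPM in line 15, against 3.75 CPM in line 14. Of those 16 regulators, 7 had 0 counts in line 15, and 5, 2 and 4 in lines 13, 13a and 14. The relation of these genes to the level of Pax3 was not tested.

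Chrna1 (ENSMUSG00000027107, chromosome 2, 73563215 to 73580338), the receptor subunit that receives acetylcholine from the motor nerve, stayed below 1 CPM throughout. In WT it had 0.153, 0.218 and 0.0894 CPM in primary clones 3, 4 and 5, and 0.0322, 0.203 and 0.0152 CPM in the lines of the same numbers. Line 4 was as high as the primary MEFs, and the groups overlapped. In Prkd3-/- the primary clones 13, 14 and 15 had 0.104, 0.333 and 0.337 CPM, and lines 13, 13a, 14 and 15 had 0.0763, 0.658, 0.0313 and 0 CPM. Line 13a, with 48 counts, was the highest of the Prkd3-/- libraries, and line 15 had none. The Log2FC was -0.92 in WT (SE 0.89, adjusted p = 0.626 in edgeR's test) and -0.40 in Prkd3-/- (SE 1.33, adjusted p = 0.966), within the spread between libraries, and in Prkd3-/- it was 0.01 without line 15. In WT it was -2.65 (adjusted p = 0.108) without line 4.

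The actins of striated muscle were present at very different levels. Acta1 (ENSMUSG00000031972, chromosome 8, 123891769 to 123894751) had 30.0, 28.2 and 34.3 CPM in WT primary clones 3, 4 and 5, and 33.4, 5.81 and 4.79 CPM in lines 3, 4 and 5. Line 3 was at the level of the primary MEFs, while line 4 was 4.87-fold and line 5 7.16-fold below its own clone. In Prkd3-/- primary clones 13, 14 and 15, Acta1 had 25.2, 40.01 and 43.9 CPM, and lines 13, 13a, 14 and 15 had 6.28, 40.03, 2.27 and 36.5 CPM. Lines 13 and 14 lay below the primary range, 4.01-fold and 17.7-fold under their clones, and lines 13a and 15 lay within it. In both genotypes the levels of the lines thus lay either within or near the primary range or far below it, and the groups overlapped. The Log2FC was -1.07 in WT (SE 0.78, adjusted p = 0.507 in edgeR's test) and -0.78 in Prkd3-/- (SE 0.89, adjusted p = 0.886). Line 3 decided the WT result, since without it the Log2FC was -2.54 (SE 0.15, adjusted p = 0.00216) and passed the thresholds.

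Actc1 (ENSMUSG00000068614, chromosome 2, 114047282 to 114053548) was far rarer. WT primary clones 3, 4 and 5 had 0.184, 0.239 and 0.143 CPM, and lines 3, 4 and 5 had 0.0483, 0 and 0.0152 CPM, with no overlap between the groups. The Prkd3-/- primary clones 13, 14 and 15 had 0.0691, 0.684 and 0.1403 CPM, and lines 13, 13a, 14 and 15 had 0.0191, 0.0959, 0.0782 and 0.0405 CPM. Clone 14 was the highest, and lines 13a and 14 lay above clone 13, so these groups overlapped. The pooled counts were 42 and 4 in WT, a 9.20-fold difference after scaling (95% interval 3.34 to 35.3), and 85 and 16 in Prkd3-/-, a 6.07-fold difference (3.53 to 11.1). Clone 14 held 74 of these 85 counts, and without it the fold was 1.48 (0.621 to 3.40). The filter of edgeR kept Actc1 out of both fits, and DESeq2, which tested it, gave a Log2FC of -3.15 in WT (SE 1.02, adjusted p = 0.0223) and of -2.37 in Prkd3-/- (SE 1.01, adjusted p = 0.373), neither past the threshold. Per kilobase of gene model, the mean level of Acta1 was 172-fold that of Actc1 in WT primary MEFs and 129-fold in Prkd3-/- primary MEFs. In the lines Actc1 had too few counts for such a ratio. Acta2, the smooth muscle alpha-actin of stress fibres, stood higher still, 62.9-fold above Acta1 per kilobase in WT primary MEFs and 188-fold in the WT lines. None of the 1496 stretches of 100 bases in the transcript of Acta1, and none of the 1518 in that of Actc1, recurred in another actin transcript.

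Des (ENSMUSG00000026208, chromosome 1, 75360329 to 75368579) was the only member whose level was lower in each of the 7 lines than in each primary library of its genotype. WT primary clones 3, 4 and 5 had 24.2, 25.8 and 22.4 CPM, and lines 3, 4 and 5 had 7.09, 0.728 and 1.48 CPM. Prkd3-/- primary clones 13, 14 and 15 had 4.34, 27.1 and 5.13 CPM, and lines 13, 13a, 14 and 15 had 0.115, 0.480, 0.922 and 0.378 CPM. Clone 14 was the highest of the Prkd3-/- primary clones, and line 3 was the highest of the WT lines. Every line was below its own clone, by 3.41-fold in line 3, 35.5-fold in line 4 and 15.2-fold in line 5. In Prkd3-/- the folds were 37.9 in line 13, 9.06 in line 13a, 29.3 in line 14 and 13.6 in line 15.

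The mean of Des went from 24.1 ± 1.69 CPM (SD, n = 3) to 3.10 ± 3.48 CPM (n = 3) in WT, and from 12.2 ± 12.9 CPM (n = 3) to 0.473 ± 0.336 CPM (n = 4) in Prkd3-/-. The Log2FC was -2.96 in WT (SE 0.85, unadjusted p = 0.0140, adjusted p = 0.134) and -4.68 in Prkd3-/- (SE 0.92, unadjusted p = 0.00123, adjusted p = 0.310) in edgeR's quasi-likelihood test, so neither passed an adjusted p of 0.01. With DESeq2 the same Log2FC values passed, with an adjusted p of 0.00126 in WT and 1.35e-05 in Prkd3-/-. In the replicate block fit, which compares each line with its own clone, the Log2FC was -3.61 in WT (adjusted p = 0.188) and -4.14 in Prkd3-/- (adjusted p = 0.654). Without WT line 3 the Log2FC was -4.44 (adjusted p = 0.00462) and passed in edgeR, and without Prkd3-/- clone 14 it was -3.32. An antisense gene, Gm15179, shares 5.86% of the exon bases of Des, and it had between 1 and 5 counts per group.

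**Figure D2:**
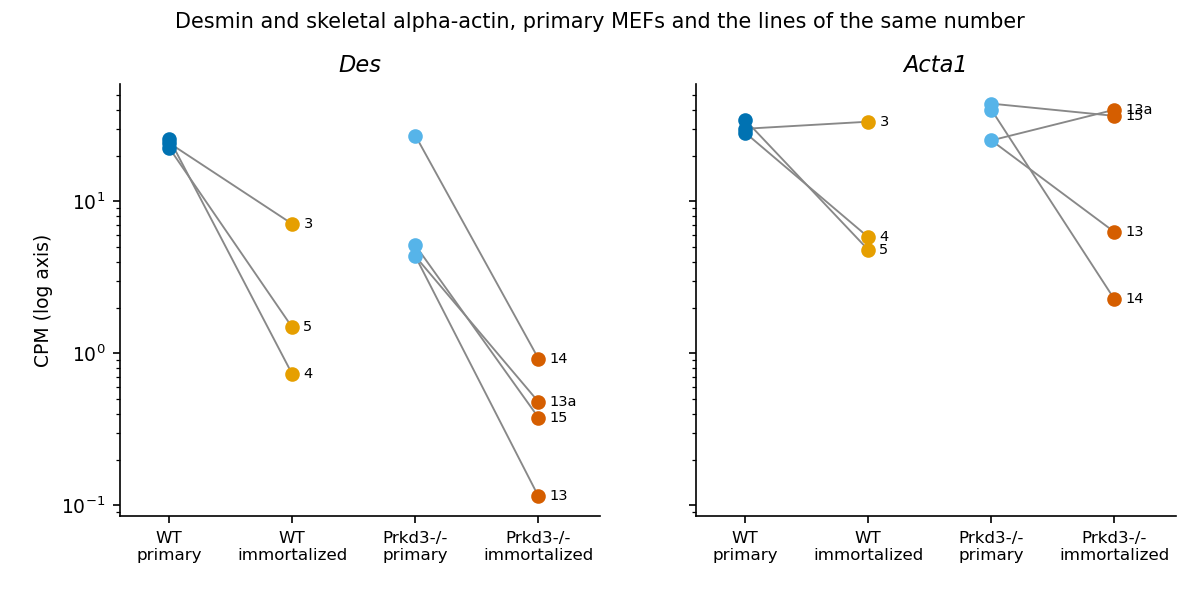
Level of Des and Acta1 (CPM, logarithmic axis) in each library by group, 1 point per library, with a line joining each primary clone to the immortalized line or lines of its number. Des was lower in every line than in its clone, whereas Acta1 in WT line 3 and in Prkd3-/- lines 13a and 15 stayed between 33.4 and 40.03 CPM.

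Ttn (ENSMUSG00000051747, chromosome 2, 76703980 to 76982547) was low for its length in all libraries. WT primary clones 3, 4 and 5 had 0.307, 0.272 and 0.411 CPM, and lines 3, 4 and 5 had 0.177, 0.186 and 0.213 CPM. All WT lines lay below all WT primary clones, with a Log2FC of -0.76 (SE 0.30, unadjusted p = 0.0445, adjusted p = 0.239 in edgeR's test). In Prkd3-/- the primary clones 13, 14 and 15 had 0.565, 0.296 and 0.421 CPM, and lines 13, 13a, 14 and 15 had 0.210, 0.438, 0.203 and 0.189 CPM. Line 13a reached the primary range, the other lines did not, and the Log2FC was -0.71 (SE 0.48, adjusted p = 0.843). These values rest on 11 to 49 counts per library.

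**Figure D3:**
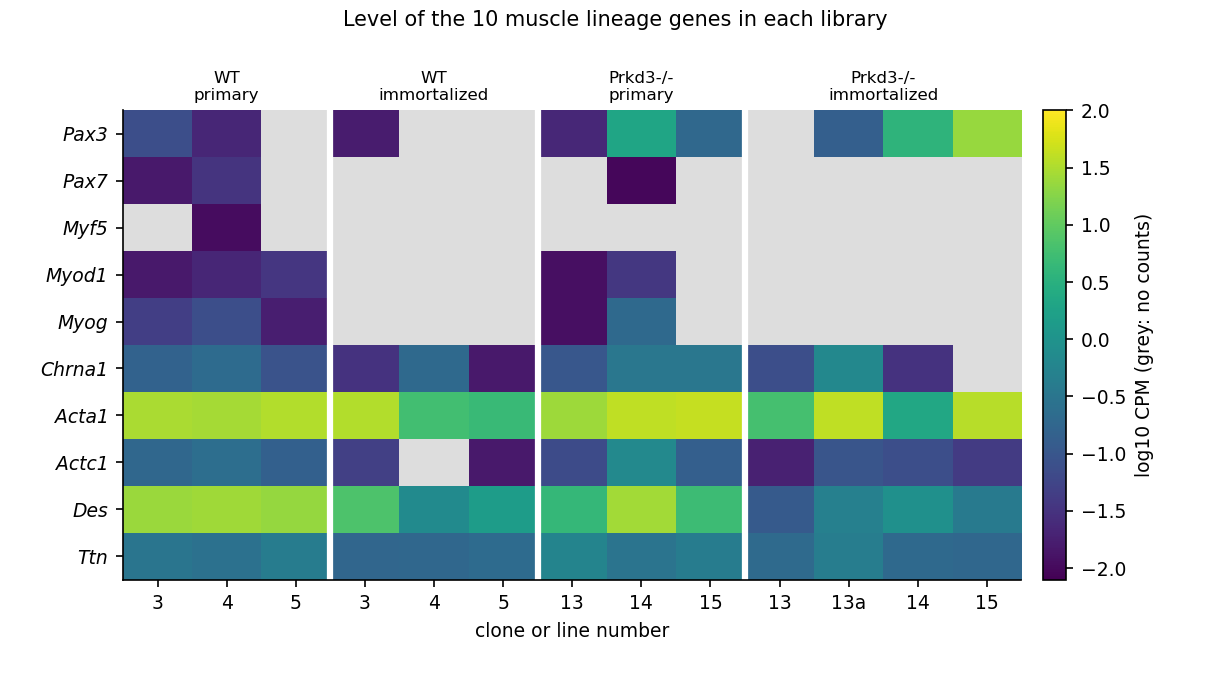
Level of the 10 members (rows) in each of the 13 libraries (columns, clone or line number within the 4 groups), coloured by log10 of CPM, with grey for no counts. Des and Acta1 are the only members above 1 CPM in all primary libraries, and Pax7, Myf5, Myod1 and Myog are grey in each of the 7 lines.

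Over the 10 members, 4 passed the filter in WT (Chrna1, Acta1, Des and Ttn) and 5 in Prkd3-/- (Pax3 besides). None passed an adjusted p of 0.01 with a |Log2FC| of at least 1 in edgeR's test, while 2 of the 4 in WT and 1 of the 5 in Prkd3-/- had an unadjusted p under 0.05. Over all genes tested, 1.82% were called in WT (361 of 19836, with 3905 at an unadjusted p under 0.05) and 0% in Prkd3-/- (0 of 20298, with 1331 at an unadjusted p under 0.05). DESeq2 called 1 member, Des, in each genotype, against 5.94% of all genes tested in WT and 0.781% in Prkd3-/-. Counting libraries instead, 2 of the 4 members that passed in WT had each line below each primary clone (Des and Ttn), and 1 of the 5 in Prkd3-/- (Des). Over all genes that passed the filter, this held for 17.4% in WT and 5.26% in Prkd3-/-. Myod1, Myog and Actc1 had the same order in WT but did not pass the filter, so that share does not apply to them. The median Log2FC of the members that passed was -0.997 in WT (all genes 0.04) and -0.71 in Prkd3-/- (all genes 0.07).

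The change from primary to immortalized was not shown to differ between genotypes for any member. The interaction over the 13 libraries tested 6 members and called 0 (0% of all 21197 genes tested, with 841 at an unadjusted p under 0.05). The same interaction in DESeq2 called 0 members and 0.178% of all genes. None of the 6 members had an unadjusted p under 0.05 in edgeR. The largest values were 5.43 for Pax3 (SE 3.85, adjusted p = 1.000) and -1.72 for Des (SE 1.25, adjusted p = 1.000).

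Other genes of the muscle pathway were read from lists. Of 16 myogenic regulators, 12 passed the filter in WT and 3 fell in edgeR's test, Meox2, Eya2 and Mef2c, and 0 rose, against 1.82% of all genes called. These 3, with Myh1 and the 6 macrophage markers given later, made 10 calls in the lists, and with the replicate block 0 of the 10 were called, at adjusted p-values from 0.0184 to 0.0525. Meox2, a homeobox factor of the somite and limb muscle, had 9.31 ± 1.31 CPM in the WT primary MEFs and 0.0107 ± 0.00933 CPM in the WT lines (adjusted p = 0.000587 in edgeR's test, n = 3 each). Eya2, a cofactor of homeobox factors in muscle precursors, had 2.31 ± 0.577 and 0.00564 ± 0.00977 CPM (adjusted p = 0.00324). Mef2c, a MADS-box factor of differentiating muscle that macrophages make as well, had 35.3 ± 1.59 and 7.09 ± 1.92 CPM (Log2FC -2.31, adjusted p = 0.00502). Mef2a, the most abundant regulator and one made in many cell types, had 160 ± 5.47 and 136 ± 3.34 CPM (adjusted p = 0.191). The list as a whole was mixed. In WT 7 of the 12 tested had a negative Log2FC, with a median of -0.13 (all genes 0.04). In Prkd3-/- it was 4 of 12, with a median of 0.09 (all genes 0.07). In Prkd3-/-, 12 regulators passed the filter, edgeR called 0 and 1 had an unadjusted p under 0.05, Meox2 (Log2FC -4.21, SE 1.06, adjusted p = 0.503), which DESeq2 called lower (adjusted p = 0.00134). Eya2 in line 14 (2.61 CPM) lay above every Prkd3-/- primary clone. Myf6 had 0 counts in all 13 libraries, and Lbx1, a factor of migrating limb precursors, had at most 1 count in a library.

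Among 10 genes of the myoblast surface and of cell fusion, 6 passed the filter in WT and 5 in Prkd3-/-, and edgeR called 0 in either, with 2 at an unadjusted p under 0.05 in each. DESeq2 called 3 lower in WT and 2 in Prkd3-/-. Ncam1, the most abundant and widely made outside muscle, had 117 ± 6.87 CPM in WT primary MEFs and 180 ± 147 CPM in the lines. Mymk, which is required for myoblast fusion, had between 0 and 8 counts in each primary library and 1 count in the 7 lines together. Other genes of the list with few counts did not share this order. Mymx had 0 counts in WT primary MEFs and 2 in the WT lines, and 2 and 0 in the Prkd3-/- groups. Fgfr4 had 5 and 8 counts in WT and 7 and 22 in Prkd3-/-. Of 8 genes of the acetylcholine receptor and the neuromuscular junction, 2 passed in each genotype and 0 had an unadjusted p under 0.05 in edgeR or were called by either tool. Chrnb1, the beta subunit, was the most abundant, with 5.88 ± 0.446 and 4.02 ± 1.31 CPM in WT, whereas the delta subunit Chrnd had 1 count in the 13 libraries.

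Of 36 genes of the sarcomere and calcium handling, 22 passed in WT and 20 in Prkd3-/-. Of these 1 fell in WT, Myh1, a myosin heavy chain of fast fibres, and 0 were called in Prkd3-/- in edgeR's test (3 and 2 at an unadjusted p under 0.05). DESeq2 called 4 lower in WT and 2 in Prkd3-/-. The 2 in Prkd3-/- were Myh1 (adjusted p = 5.79e-05) and Myh2 (adjusted p = 0.000117), which edgeR's filter had kept out of that fit. In Prkd3-/-, Myh1 had 2.80 ± 2.33 CPM in the primary MEFs and 0.0237 ± 0.0319 CPM in the lines. Myh1 had 1.75, 1.57 and 4.06 CPM in WT primary clones 3, 4 and 5, and 0.0161, 0 and 0 CPM in the lines of the same numbers (adjusted p = 0.00666 in edgeR's test). An antisense gene, Myhas, shares 8.11% of the exon bases of Myh1 and had 57 counts in WT primary MEFs, against 485 for Myh1, and without strand in the counting their reads cannot be told apart. Myom1, the most abundant gene of the list and a protein of the sarcomere's M band, had 27.1 ± 0.946 CPM in WT primary MEFs and 30.9 ± 19.8 CPM in the lines. The creatine kinase of muscle, Ckm, had at most 5 counts in a library, and Smpx had none. The median Log2FC of the list was 0.01 in WT and -0.07 in Prkd3-/-, against 0.04 and 0.07 over all genes.

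Markers of other cell types in a MEF culture were read as well, and their part in the results was not tested. Of 10 macrophage markers, 6 fell in WT in edgeR's test and 0 were called in Prkd3-/- (2 at an unadjusted p under 0.05), while DESeq2 called 9 and 0. In WT they had a median Log2FC of -4.41 over the 10, all of which were tested in both genotypes. Their summed level ranged from 627 to 653 CPM in WT primary MEFs, from 30.5 to 91.0 in the WT lines, from 87.8 to 922 in the Prkd3-/- primary MEFs and from 10.2 to 156 in the Prkd3-/- lines. Csf1r, the receptor that macrophages need to survive, had 211 ± 1.48 CPM in WT primary MEFs and 17.4 ± 5.17 CPM in the lines (adjusted p = 0.00129). The 4 with the smallest p, C1qa, Cd68, Fcgr1 and C1qb, had Log2FC values of -4.14, -4.47, -5.37 and -4.11. Of 14 smooth muscle and pericyte markers, all tested, edgeR called 0 in either genotype (1 in WT and 2 in Prkd3-/- at an unadjusted p under 0.05), and DESeq2 called 1 lower in WT, Myh11. In WT 4 of the 14 had a negative Log2FC, with a median of 0.25, and in Prkd3-/- 8 of 14, with a median of -0.14. Their summed level ranged from 5318 to 5418 CPM in the WT primary MEFs, 3720 to 11737 in the WT lines, 5380 to 9512 in the Prkd3-/- primary MEFs and 4115 to 6795 in the Prkd3-/- lines. Within that list, Myh11, the myosin heavy chain of mature smooth muscle, was chosen after its values were seen. It had 70.1, 70.9 and 78.8 CPM in WT primary clones 3, 4 and 5, and 20.8, 19.0 and 4.07 CPM in the lines (Log2FC -2.32, adjusted p = 0.0996). Like Des, it was lower in each line than in its clone in both genotypes, by 3.36-fold to 19.4-fold in WT.

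Of 12 heart muscle markers, 6 passed in WT and 7 in Prkd3-/-, and of 10 neural crest and Schwann cell markers 7 passed in each. In edgeR 0 were called (1 heart marker in each genotype, and 3 and 1 neural crest markers in WT and Prkd3-/-, at an unadjusted p under 0.05), while DESeq2 called 1 heart and 3 neural crest markers lower in WT and 0 in Prkd3-/-. The summed level of the heart muscle list ranged from 34.8 to 41.3 CPM in WT primary MEFs and from 6.04 to 22.4 in the WT lines, and from 12.9 to 44.2 and from 4.63 to 64.0 CPM in the Prkd3-/- primary MEFs and lines. That of the neural crest list ranged from 20.6 to 23.9 CPM in WT primary MEFs, 0.725 to 6.55 in the WT lines, 19.9 to 29.8 in the Prkd3-/- primary MEFs and 0.668 to 67.1 in the Prkd3-/- lines. The 12 fibroblast markers were all tested and 0 were called by either tool (1 in WT and 0 in Prkd3-/- at an unadjusted p under 0.05 in edgeR). Their summed level was 58274 to 60570 CPM in WT primary MEFs and 42574 to 100714 in the lines, and 33524 to 54765 and 30945 to 45096 CPM in the Prkd3-/- groups, and these markers were counted in all libraries. The most abundant was Fn1, fibronectin, with 18462 ± 912 CPM in WT primary MEFs.

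Within the Prkd3-/- primary MEFs, clone 14 stood apart from clones 13 and 15 in several members. Against the higher of the other clones, Pax3 was 10.4-fold higher, Des 5.27-fold and Actc1 4.88-fold. Myog had 22 counts in clone 14 against 1 in clones 13 and 15 together, a ratio of 24.9 after scaling (95% interval 4.02 to 1028), and Myod1 had 4 against 1, a ratio of 4.53 (0.448 to 223), which the depth cannot tell from no difference. Acta1 and Chrna1 were not, at 0.911-fold and 0.989-fold, and Ttn was lower, at 0.524-fold. The fast myosin heavy chains Myh1 and Myh2 went the other way, with Myh1 at 4.44, 0.129 and 3.84 CPM and Myh2 at 1.68, 0.0277 and 1.60 CPM in clones 13, 14 and 15 (Myh2 was chosen after its values were seen). Over the 36 genes of the sarcomere list, counts under the floor included, 20 were highest in clone 14 and 8 lowest. The same share over all genes was not counted, so these counts describe no trait of the list. Per gene beyond counting noise, clone 14 differed by 21.6% from clone 13 and by 19.6% from clone 15, against 8.82% between clones 13 and 15. Myh3, an embryonic myosin heavy chain also chosen after its values were seen, had 0.0461, 0.767 and 0.309 CPM in clones 13, 14 and 15. In clone 14 the macrophage markers were 4.63-fold higher in sum, at 922 CPM against 87.8 and 199 CPM, and Myh11 4.61-fold. The smooth muscle list was 1.53-fold higher in sum, while the fibroblast list was 0.612-fold and the neural crest list 0.733-fold. These are values of 1 library with no replicate, and clone 14 was also the deepest of all. Line 13a held the highest macrophage level of the Prkd3-/- lines, 156 CPM, and the highest levels of Chrna1, Acta1, Actc1 and Ttn among them. For Actc1 this rests on 7 counts against 5 in line 14. Des was highest in line 14 (0.922 CPM against 0.480 CPM in line 13a) and Pax3 in line 15. Acta1 was nearly as high in line 15 (36.5 CPM), where the macrophage markers summed to 15.4 CPM. Leaving out clone 14 and line 13a together, an alternative chosen after the data were seen, the Log2FC of Des was -3.33 (SE 0.88, adjusted p = 0.461) and that of Acta1 -1.23 (SE 1.12, adjusted p = 0.997), and 0 members were called.

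**Figure D4:**
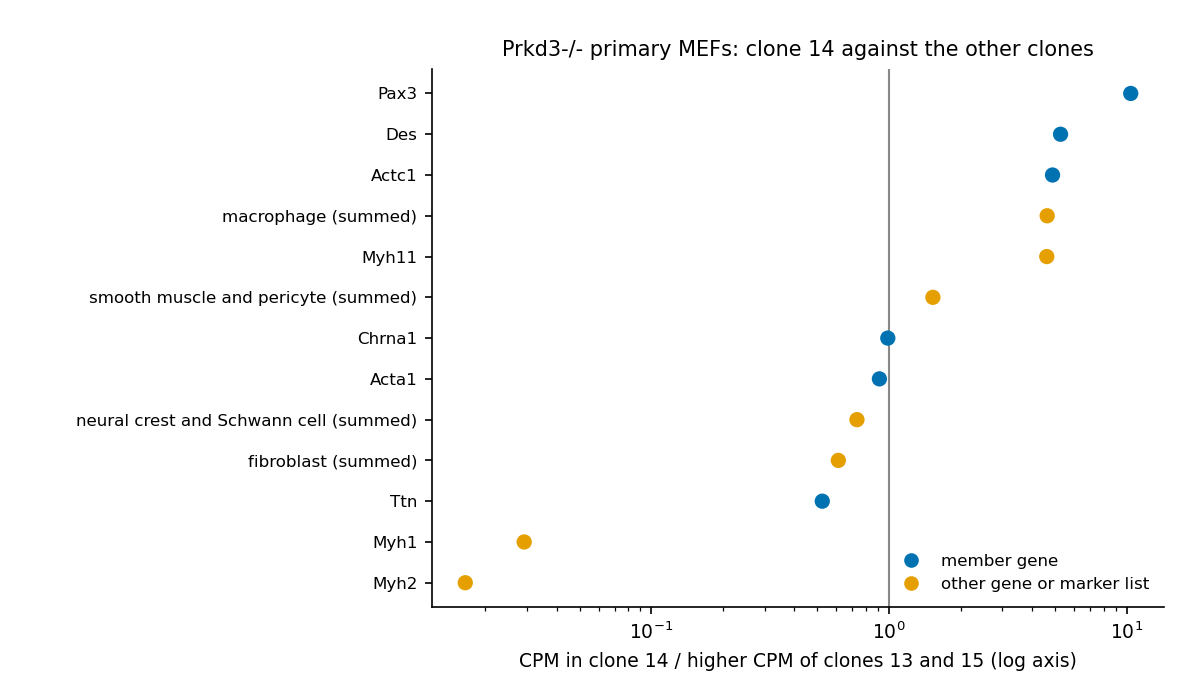
Ratio of CPM in Prkd3-/- primary clone 14 to the higher CPM of clones 13 and 15 (logarithmic axis), for the members with more than 3 counts in clone 13 or 15 and for genes and summed marker lists of other kinds, 1 point each, with a vertical line at a ratio of 1. Pax3 lies at 10.4, and Des at 5.27 and Actc1 at 4.88 lie near the macrophage list at 4.63, while Myh1 and Myh2 lie at 0.0292 and 0.0165.

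The genes with the most similar pattern over the 13 libraries were named by Pearson's r of log2 CPM (prior count of 1), as a description. The libraries share depth, state and clone, so the coefficients carry no test. With Pax3 these were Ppox (r = 0.902, and 0.701 without the 2 libraries farthest from the median), Piwil2 (0.897 and 0.889) and 2610307P16Rik (0.887 and 0.739). With Acta1 they were Basp1 (0.912 and 0.838), Tle4 (0.902 and 0.906) and Ramp1 (0.877 and 0.827). Spearman's rho was 0.841, 0.847 and 0.680 for Ppox, Piwil2 and 2610307P16Rik, and 0.923, 0.692 and 0.698 for Basp1, Tle4 and Ramp1. Des was added after the values were seen, and genes among its nearest were Atp13a2 (r = 0.968, rho = 0.912) and Fam83f (r = 0.938, rho = 0.944).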

How the data were processed

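Poly-A RNA of 13 MEF cultures was sequenced in pairs of 100 bases. Per the labels and the header of the WT table, the authors checked reads with FastQC 0.12.0, aligned them with STAR 2.7.10a (mm10), used SAMtools 1.18, and counted pairs on Ensembl GRCm38 genes with featureCounts of Subread 2.0.6. The authors deposited these raw counts in 1 table per genotype. The Prkd3-/- table has no such header but lists the same genes and lengths. Counting ignored strand and assigned a pair to every gene it overlapped, so overlapping genes share reads.

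Counts were used as deposited. Symbols were matched to gene IDs (55141 of 55487 had one). Each genotype was fitted with edgeR 4.0.16 (quasi-likelihood, TMM, filterByExpr, robust) in R 4.3.3, and genes were called at an adjusted p (Benjamini-Hochberg) under 0.01 where |Log2FC| was 1 or more. The difference between genotypes was an interaction over 13 libraries at an adjusted p under 0.05. SE is |Log2FC| over the square root of F. The fits were also run on simulated counts with the same spread for all genes and both states. The spread of these libraries differs between states, so that run does not show how the fits behave here.

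The members and lists were chosen with earlier results of these data known. From each list the most abundant gene and up to 4 called genes, in order of p, were named, besides genes said to be chosen later. Some genes with few or no counts, such as Mymk, Ckm and Lbx1, were named outside this rule. The 3 genes most like the most abundant regulator and structural member were named by Pearson's r. Some single genes are not reported here.

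Alternatives were DESeq2 1.42.0 as the tool or for scaling only, scaling by library size, a filter of 10 counts in each library or none, edgeR without its robust option, limma 3.58.1 (voom, weighted by state), a fit to all libraries at once, a replicate block, each library left out, other thresholds, and lines 13 and 13a summed. The pairing of a line with its clone comes from the clone numbers in the sample names. Deviations from the group means correlated at -0.03, 0.02 and -0.04 within the WT pairs of clones 3, 4 and 5, and at 0.14, -0.28, 0.09 and 0.04 for lines 13, 13a, 14 and 15 with their clones.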

Additional observations from a re-analysis of the deposited data

Results flagged for a closer look

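Levels of 3 members were noted by Dixon's ratio of gap to range, for the highest of the 4 Prkd3-/- lines. Each ratio was above its 95% critical value, and 6 members had counts in these lines. Chance exceeds that value in about 1 in 20 groups where levels are normally distributed, which was not shown for these CPM. Chrna1 rests on 4, 48, 2 and 0 counts in lines 13, 13a, 14 and 15. The share of all genes that pass the same rule was not counted, so the flags do not show that these members are unusual. Pax3 in line 15 (23.4 CPM against 0 to 3.72 CPM) had a ratio of 0.841. Chrna1 in line 13a (0.658 CPM against 0 to 0.0763 CPM) had a ratio of 0.884. Ttn in line 13a (0.438 CPM against 0.189 to 0.210 CPM) had a ratio of 0.915. Line 13a also held the highest summed macrophage level among these lines, 156 CPM, and the part of those cells in its values was not tested.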

How the results depend on the processing

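The number of members called was 0 in WT, in Prkd3-/- and in the interaction. With DESeq2 it was 1 (Des) in WT and 1 (Des) in Prkd3-/-, and leaving out each library gave 0 to 2 in WT, 2 (Des and Acta1) without WT line 3. The cause was not tested. In the replicate block fits 0 members were called, and the block changed no call of a member. Over single members, 192 of the alternative values kept their direction and their side of the thresholds, 4 became called, and 1 turned direction, Chrna1 in Prkd3-/- at 0.0144 without line 15 (-0.80 to 0.0144 without each library). Over the alternatives, the Log2FC of Des ranged from -4.44 to -2.49 in WT and from -5.22 to -3.32 in Prkd3-/-, and Pax3 in Prkd3-/- from 0.75 to 6.48.

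The background moved more. Of all genes in WT, 361 were called, but 1361 by DESeq2, 157 with at least 10 counts in every library, 184 with limma, 868 at an adjusted p under 0.05, 0 in 1 fit of all libraries, 0 with the replicate block (2784 at an unadjusted p under 0.05), and 48 to 743 without each library, 48 without primary clone 3 and 743 without line 5. In Prkd3-/- the count was 0, but 190 by DESeq2 and 1 in 1 fit of all libraries. In the interaction it was 0, but 37 by DESeq2 and 2 without Prkd3-/- line 14. Library size alone moved the median Log2FC of all genes in WT from 0.04 to -0.10, and no direction of a member changed with it. At 3 counts per library, levels under 0.0277 to 0.0842 CPM were out of reach.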
